A study of Mus musculus with 8 samples.

Results

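The 32 genes described here mark microglia, the resident macrophages of the brain, or the macrophages at its borders. They were followed in the embryonic cortex of mice with and without a VEGF-A transgene. They are a list of marker genes taken by name, and each was read from every probe set, the group of probes for a gene on the array, that the platform annotation assigns to that gene symbol alone. All 32 were measured, by 1 probe set each, among 19938 genes in all. Whole-transcript arrays from Affymetrix were hybridised with RNA of brain cortex from embryos at embryonic day 16, on a mixed strain background. The labels put 4 arrays in a control group of wild-type embryos without TetO-VEGF-A164, and 4 in a group of bitransgenic embryos, GFAP-tTA: TetO-VEGF-A164, in which the series title and labels give overexpression of VEGF. In that system the tetracycline-controlled transactivator tTA is made where the Gfap promoter is active, in radial glia and astrocytes, and turns on the TetO-linked VEGF-A164. No label says whether any control embryo carried the transactivator, or whether an array holds 1 embryo or a pool, or embryos of separate litters. VEGF-A164 therefore cannot be told apart from the transactivator and other differences in genotype, and p-values measure only the spread between these samples.

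Microglia descend from yolk sac progenitors that enter the neural tube before most neurons are born, depend on the receptor Csf1r and the transcription factors PU.1 and Irf8, and clear dying cells and synapses. Border macrophages line the meninges, the perivascular spaces and the choroid plexus, share much of the microglial programme, and carry scavenger receptors such as Mrc1, Lyve1 and Cd163. VEGF-A acts mainly on endothelial cells, and its receptor Flt1 is also found on monocytes and macrophages.

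Values come on a logarithmic scale taken to be log2, and each probe set is centred on its median over the 8 arrays. A value of 0.10 therefore says that the gene was 0.10 above its own middle value, a fold is right if the base is 2, no absolute level is kept, and the presence of a cell type or of the cortex itself could not be judged from levels. The arrays had medians from -0.0091 (VEGF 2) to 0.015 (control 2), and interquartile ranges from 0.061 (control 4) to 0.14 (VEGF 2). Control 3, VEGF 2 and VEGF 3 had the female pattern of Xist and Y-linked genes. Vegfa itself averaged -0.039 ± 0.081 over the control arrays and 0.014 ± 0.064 over the VEGF-labelled ones (SD, n = 4 each) and differed by 0.053 with an SE of 0.051 (limma, adjusted p = 0.748), so it does not check the labels. The sources used here do not say whether its probe set reads the transgene.

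Most of the microglia and macrophage genes differed little between the groups, and the largest difference was that of Lyz2, the lysozyme of phagocytes, 1.36-fold higher in the VEGF-labelled arrays. The genes below control at an unadjusted limma p under 0.05 were 3 microglial receptor genes. These were P2ry12 and P2ry13, which sense extracellular ADP, and Siglech, a sialic acid-binding lectin, at 0.823-fold, 0.873-fold and 0.879-fold. Lyve1 (0.844-fold) and Ly86 (0.856-fold) were lower than P2ry13 and Siglech but varied more. Beside Lyz2, the complement gene C1qb and the lysosomal gene Cd68 lay above control at that p, at 1.15-fold and 1.13-fold. C1qc, at 1.16-fold, did not reach it. Of the 32 genes 0 passed an adjusted p of 0.05 in limma with Benjamini-Hochberg adjustment over all genes, where 0% of the 19938 genes passed. At an unadjusted limma p under 0.05, 3 of 32 were higher, which is 9.38% against 4.62% of all genes, and 3 of 32 were lower, which is 9.38% against 7.84%. The 4 VEGF-labelled arrays lay wholly above the 4 control arrays in 1 of 32, Lyz2, or 3.12% against 2.13% of all genes. They lay wholly below in 2 of 32, P2ry12 and Siglech, or 6.25% against 4.71%. The methods' t-test, run on the same values, gave 1 of 32 higher at its unadjusted threshold, or 3.12% against 3.31% of all genes, 2 lower, or 6.25% against 7.30%, and 0 after adjustment. In direction, 14 of the 32 were higher and 18 lower, with a median difference of -0.023, against 8628 higher and 11310 lower and a median of -0.010 over all genes. These are whole pieces of cortex, so fewer cells of a type and less RNA per cell cannot be told apart.

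**Figure D1:**
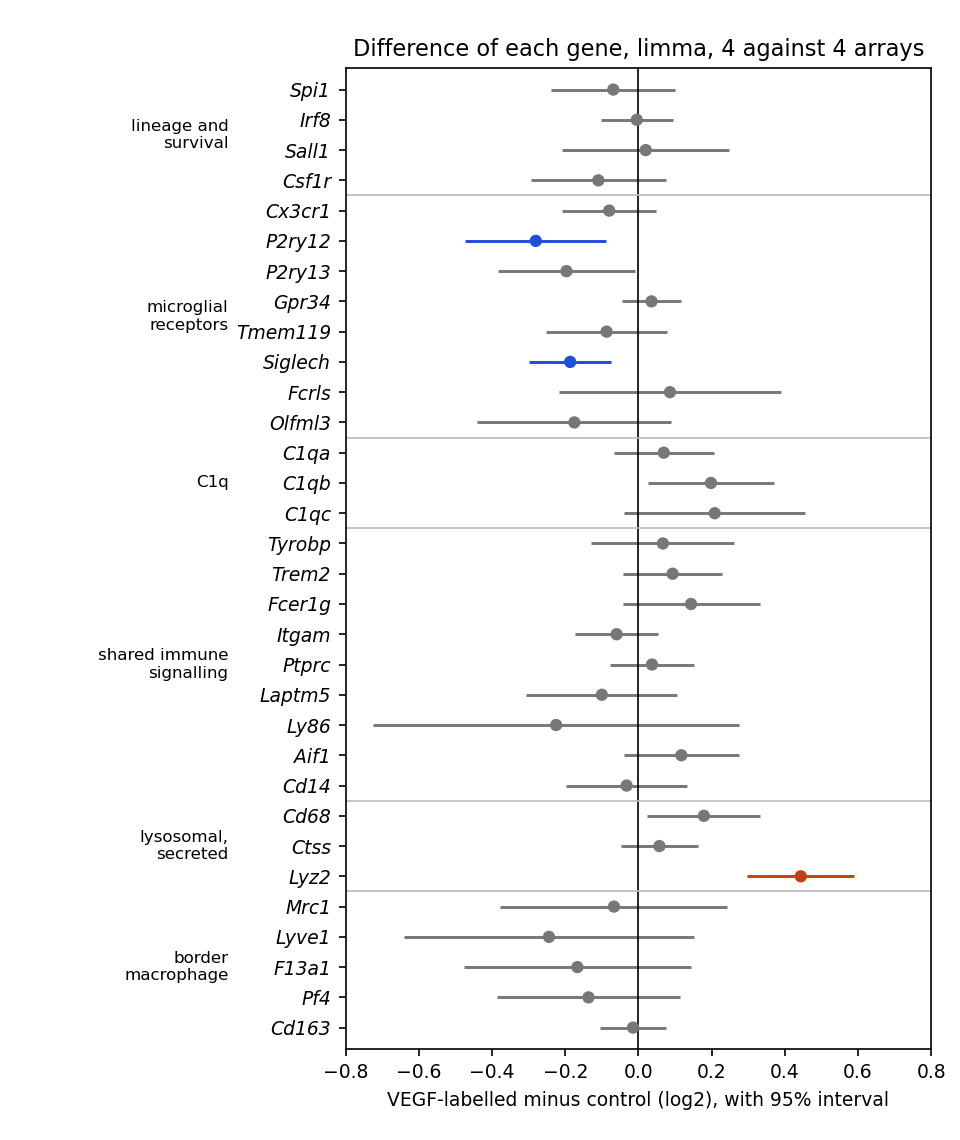
Difference of each of the 32 genes, VEGF-labelled minus control, on the log2 scale, with the 95% interval of the limma fit (4 against 4 arrays), ordered by role. The red point, Lyz2 at 0.44, and the blue points, P2ry12 at -0.28 and Siglech at -0.19, are the genes whose groups do not overlap.

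Lyz2 encodes lysozyme M, a bactericidal enzyme that macrophages and neutrophils secrete and store. Its values were -0.24, -0.094, -0.26 and -0.29 in control 1 to 4 and 0.16, 0.32, 0.094 and 0.32 in VEGF 1 to 4. All 4 VEGF-labelled arrays were above all 4 control arrays, and the nearest pair was control 2 and VEGF 3. The means were -0.22 ± 0.086 and 0.22 ± 0.11 (SD, n = 4 each), which differ by 0.44, with an SE of 0.065 and a 95% interval of 0.30 to 0.59. Its limma p of 7.01e-05 was the fifth smallest of all genes, with an adjusted p of 0.243. An exact permutation test, two-sided, gave p = 0.0286, the smallest that 4 against 4 arrays allow. Groups that do not overlap always give this value, so it adds nothing to the lack of overlap. Lyz2 was also listed with earlier results of these data known, so its p-values are descriptive only. With any of the 8 arrays left out in turn the difference lay between 0.41 and 0.49. Lyz1, a near-identical lysozyme gene beside Lyz2, was looked at after the value of Lyz2 was seen, since probes can read both. It lay at -0.095, -0.058, -0.098 and -0.18 in control 1 to 4 and at 0.058, 0.24, 0.070 and 0.27 in VEGF 1 to 4, again with no overlap. Its difference was 0.27 with an SE of 0.057 (limma, adjusted p = 0.243), and how far each probe set reads its own gene was not tested.

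The microglial receptor genes were led downward by P2ry12, the purinergic receptor that guides microglial processes to sites of injury. Its values were 0.11, 0.17, 0.084 and 0.018 in control 1 to 4 and -0.018, -0.36, -0.34 and -0.028 in VEGF 1 to 4. VEGF 2 and VEGF 3 were far below every other array, while VEGF 1 and VEGF 4 lay just under control 4. VEGF 2 and VEGF 3 had the female pattern, as did control 3, where P2ry12 was at 0.084. The difference was -0.28 with an SE of 0.085 and a 95% interval of -0.47 to -0.088 (limma, adjusted p = 0.265, and exact permutation p = 0.0286). With the sex pattern as a covariate P2ry12 was lower at an unadjusted limma p under 0.05, as were 6.59% of all genes. The part of sex was not tested further. Siglech, a receptor of microglia and plasmacytoid dendritic cells, stood at 0.19, 0.036, 0.085 and 0.018 in control 1 to 4 and at -0.097, -0.15, -0.15 and -0.018 in VEGF 1 to 4. Control 4 and VEGF 4 were again the nearest pair, and no array crossed over. Siglech differed by -0.19 with an SE of 0.050 and a 95% interval of -0.30 to -0.074 (limma, adjusted p = 0.243, and exact permutation p = 0.0286). As for Lyz2, the permutation p of P2ry12 and of Siglech only restates the lack of overlap. Both genes were listed with earlier results of these data known. P2ry13, a second ADP receptor of microglia, was at 0.063, 0.057, 0.16 and -0.057 in control 1 to 4 and at -0.26, -0.19, -0.23 and 0.11 in VEGF 1 to 4. Here VEGF 1, VEGF 2 and VEGF 3 lay below all control arrays, and VEGF 4 lay above all but control 3. The difference of P2ry13 was -0.20 with an SE of 0.083 (limma, adjusted p = 0.382, and exact permutation p = 0.114). P2ry13 was at an unadjusted p under 0.05 in 7 of 21 alternatives, and its difference ran from -0.28 without VEGF 4 (adjusted p = 0.105) to -0.070 with the erythroid markers as a covariate (adjusted p = 0.794).

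**Figure D2:**
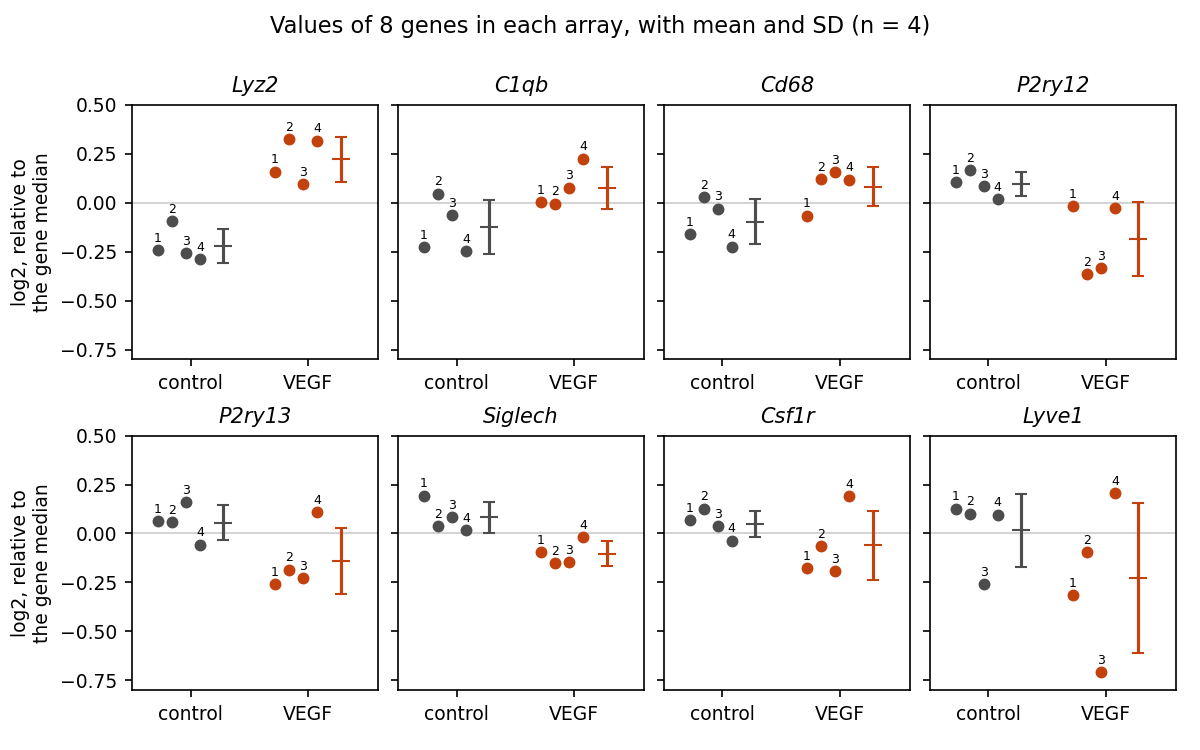
Values of 8 genes in each array, with replicate numbers beside the points and the mean and SD (n = 4) to the right of each group. Lyz2 separates upward and P2ry12 and Siglech downward, and in P2ry13 and Csf1r VEGF 4 (0.11 and 0.19) lies apart from VEGF 1 to 3.

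The promoters of these genes are shown because members that differ in opposite directions can be set against the site of PU.1, the factor that myeloid genes share. RefSeq's promoter table (GRCm38.p6) held 24 of the 32 genes, in 29 windows that run from upstream of the gene's start to shortly after it. The genes printed are the 3 whose groups do not overlap and the C1q subunit of smallest p. Sequences run 5′ to 3′ on the gene's strand. Capitals mark GAGGAA, on either strand, the form of the PU.1 site that is called the core here. Other forms were not marked, so 0 cores does not mean that a window lacks a PU.1 site.
Lyz2, chr10:117282223-117282522, minus strand, 0 cores: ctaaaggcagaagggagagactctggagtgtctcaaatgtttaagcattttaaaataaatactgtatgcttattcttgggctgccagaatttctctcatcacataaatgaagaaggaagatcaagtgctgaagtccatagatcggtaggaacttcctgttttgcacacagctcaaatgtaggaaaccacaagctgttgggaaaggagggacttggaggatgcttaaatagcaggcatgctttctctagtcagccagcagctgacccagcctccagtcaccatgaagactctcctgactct
P2ry12, chr3:59262936-59263235, minus strand, 0 cores: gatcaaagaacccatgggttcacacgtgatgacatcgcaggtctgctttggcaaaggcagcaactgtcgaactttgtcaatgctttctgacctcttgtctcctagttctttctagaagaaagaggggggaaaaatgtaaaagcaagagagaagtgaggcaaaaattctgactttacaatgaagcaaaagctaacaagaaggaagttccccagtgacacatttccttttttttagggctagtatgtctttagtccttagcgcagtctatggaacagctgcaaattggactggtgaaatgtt
Siglech, chr7:55767934-55768233, plus strand, 1 core read on the opposite strand: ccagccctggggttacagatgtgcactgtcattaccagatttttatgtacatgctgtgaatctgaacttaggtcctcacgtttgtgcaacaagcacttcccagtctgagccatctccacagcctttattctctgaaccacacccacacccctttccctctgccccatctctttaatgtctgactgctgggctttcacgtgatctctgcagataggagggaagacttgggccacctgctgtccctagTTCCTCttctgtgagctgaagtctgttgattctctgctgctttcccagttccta
C1qb, chr4:136886151-136886450, minus strand, 1 core: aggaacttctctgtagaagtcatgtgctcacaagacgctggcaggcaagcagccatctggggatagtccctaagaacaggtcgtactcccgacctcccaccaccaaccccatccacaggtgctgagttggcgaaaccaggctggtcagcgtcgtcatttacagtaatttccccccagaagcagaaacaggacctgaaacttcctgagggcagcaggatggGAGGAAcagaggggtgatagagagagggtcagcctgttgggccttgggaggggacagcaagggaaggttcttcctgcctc
The core GAGGAA was in 16 of the 29 windows, or 55.2%, against 28.3% of all 32851 promoters. The longer form GAGGAAGT, which contains the core, was in 4 of 29, or 13.8%, against 3.2%, in the promoters of C1qc, Ctss, F13a1 and Pf4. The composite site of PU.1 with an IRF partner was in 1 of 29, that of Cd68, or 3.45% against 2.72%. A match describes these letters in this window and is no evidence of binding.

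The other 5 receptor and surface genes of microglia did not separate the groups. Tmem119, a membrane protein specific to microglia in the brain, lay at 0.030, 0.23, -0.030 and 0.063 in control 1 to 4 and at -0.099, -0.054, -0.067 and 0.17 in VEGF 1 to 4. VEGF 1 to 3 were below all control arrays, and VEGF 4 was higher than all but control 2, so that the difference was -0.087 with an SE of 0.073 (limma, adjusted p = 0.705). Cx3cr1, the receptor through which microglia sense the neuronal ligand Cx3cl1, differed by -0.080 with an SE of 0.057. VEGF 4 (0.092) was again its highest VEGF-labelled array, against -0.064 to -0.017 in VEGF 1 to 3. Gpr34, a lysophosphatidylserine receptor, differed by 0.036 with an SE of 0.036, a narrow spread. Fcrls, an Fc receptor-like gene of mouse microglia, varied most within control, from -0.41 in control 4 to 0.21 in control 2, and its difference of 0.086 had an SE of 0.13. Olfml3, a secreted matrix protein that microglia express, differed by -0.18 with an SE of 0.12, and its lowest arrays were VEGF 3 at -0.42 and VEGF 4 at -0.18. Of the 8 genes in this role 6 were lower and 2 higher, with a median difference of -0.13.

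The lineage and survival factors of microglia were near 0. Spi1, which encodes PU.1, the master transcription factor of myeloid cells, was at -0.035, 0.097, 0.052 and -0.053 in control 1 to 4 and at -0.28, 0.020, -0.020 and 0.068 in VEGF 1 to 4. VEGF 1 alone lay outside the control range, and the difference of -0.069 (SE 0.075) became 0.0075 without that array. Csf1r, the receptor whose signal keeps microglia alive, was at 0.068, 0.13, 0.037 and -0.037 in control 1 to 4 and at -0.18, -0.065, -0.19 and 0.19 in VEGF 1 to 4. As in P2ry13 and Tmem119, VEGF 1 to 3 were below every control array, and in Csf1r VEGF 4 was above them all, and the difference was -0.11 with an SE of 0.082 (limma, adjusted p = 0.657). Irf8, the interferon regulatory factor that partners PU.1, differed by -0.0045 with a 95% interval of -0.10 to 0.094. Sall1, a transcription factor that sets microglia apart from other macrophages but is also made by neural progenitors of the cortex, differed by 0.020 with a wider interval of -0.21 to 0.25. Sall1 was highest in control 3 (0.20) and VEGF 3 (0.28), an order that no other microglia-enriched gene showed.

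Complement C1q opens the classical pathway and tags synapses and debris, and its 3 chains are encoded by neighbouring genes. All 3 C1q genes were higher in the VEGF-labelled arrays, with a median difference of 0.20 and none past the adjusted threshold. C1qb was at -0.23, 0.046, -0.063 and -0.25 in control 1 to 4 and at 0.0045, -0.0045, 0.077 and 0.22 in VEGF 1 to 4. Control 1 and control 4 were the low arrays, and control 2 lay among the VEGF-labelled ones, so the groups overlapped. The difference of C1qb was 0.20 with an SE of 0.076 and a 95% interval of 0.026 to 0.37 (limma, adjusted p = 0.345, and exact permutation p = 0.0857). C1qc followed at -0.13, 0.099, 0.015 and -0.29 in control 1 to 4 and -0.015, -0.061, 0.30 and 0.30 in VEGF 1 to 4, with VEGF 3 and VEGF 4 far above the rest. Its difference of 0.21 had an SE of 0.11 (limma, adjusted p = 0.486). C1qa had the smallest difference, 0.069 with an SE of 0.061.

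The lysosomal genes lay higher beside Lyz2. Cd68, a lysosomal membrane glycoprotein of phagocytes, was at -0.16, 0.029, -0.029 and -0.22 in control 1 to 4 and at -0.065, 0.12, 0.16 and 0.12 in VEGF 1 to 4. VEGF 2 to 4 were above every control array, and VEGF 1 lay below control 2 and control 3. Cd68 differed by 0.18 with an SE of 0.068 and a 95% interval of 0.024 to 0.33 (limma, adjusted p = 0.345, and exact permutation p = 0.0857). Without control 4 its difference was 0.14. Ctss, the protease cathepsin S, which trims antigen-presenting complexes, differed by 0.057 with an SE of 0.046.

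The 9 immune signalling genes that microglia share with other macrophages went both ways, 5 higher and 4 lower with a median of 0.037. The adaptor Tyrobp and its receptor Trem2, which sense lipids and debris, differed by 0.067 (SE 0.087) and 0.093 (SE 0.060). Fcer1g, the signalling chain of Fc receptors, differed by 0.14 with an SE of 0.083 and was highest in VEGF 4 at 0.29. Aif1, the actin-binding protein Iba1 used to stain microglia, was at -0.10, -0.025, 0.025 and -0.089 in control 1 to 4 and at 0.063, -0.13, 0.16 and 0.19 in VEGF 1 to 4. All VEGF-labelled arrays but VEGF 2 were above every control array in Aif1, and the difference was 0.12 with an SE of 0.070 (limma, adjusted p = 0.554). Ptprc, the pan-leukocyte phosphatase CD45, differed by 0.037 (SE 0.051), and Itgam, the integrin CD11b of myeloid cells, by -0.060 (SE 0.050). Cd14, the coreceptor for bacterial lipopolysaccharide, differed by -0.032 (SE 0.073) and Laptm5, a lysosomal regulator of immune receptors, by -0.10 (SE 0.091). Ly86, the partner MD-1 of a Toll-like receptor homologue, had the widest spread of all 32 genes. It was at 0.69 in control 2 and 0.50 in VEGF 2, against -0.42 to 0.084 in the other 6 arrays, and its difference of -0.22 had an SE of 0.22. Control 2 and VEGF 2 are also the arrays with the widest overall spread within their groups, and the part of that spread in Ly86 was not tested.

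**Figure D3:**
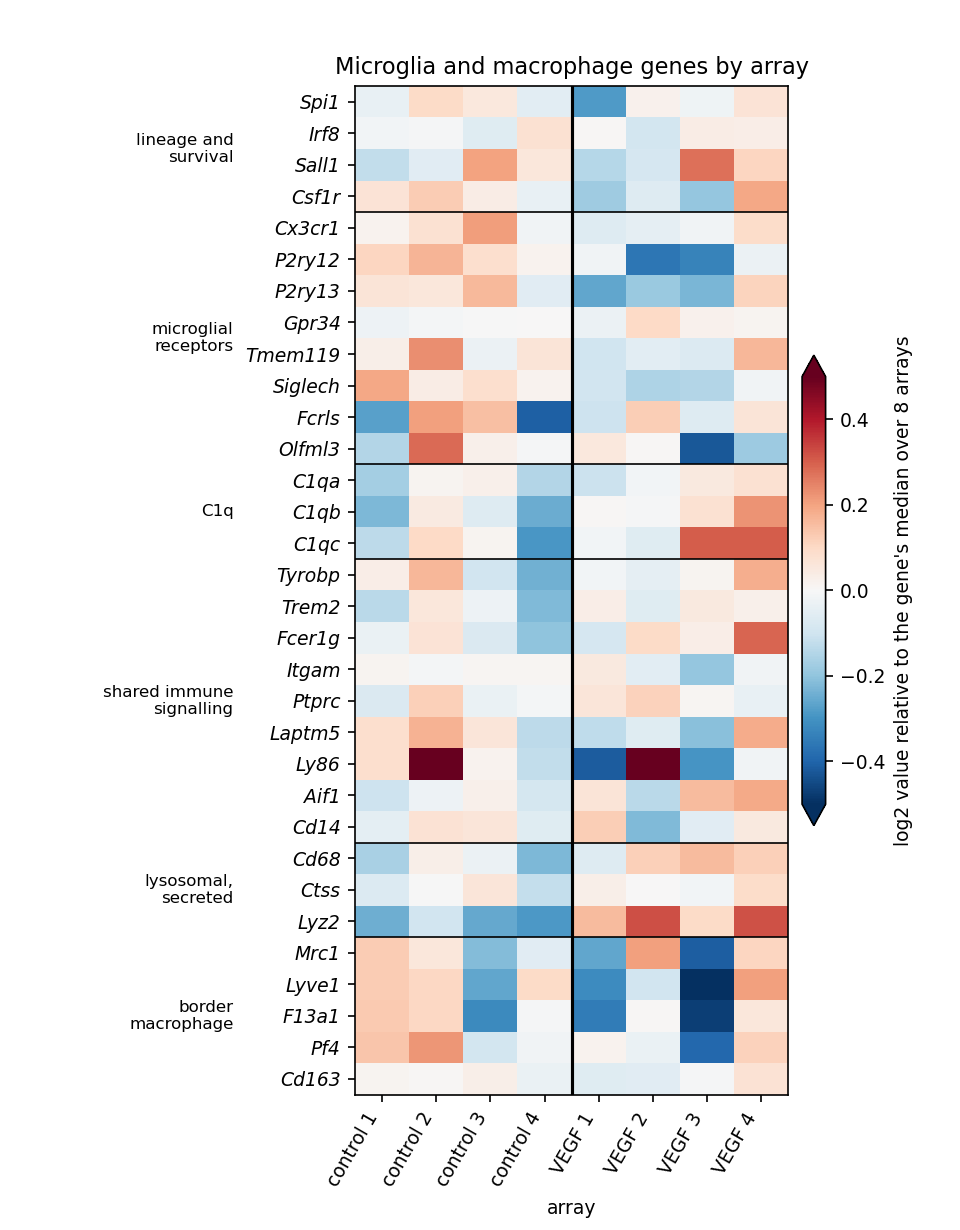
Value of each of the 32 genes (rows, by role) in each of the 8 arrays (columns), as log2 relative to the gene's median over the arrays, with the colour scale limited to 0.5 either way. Lyz2 changes colour between the groups. VEGF 4 is the highest VEGF-labelled array in 18 of 32 genes, a position not counted over all genes. Control 3 and VEGF 3 are lowest in their groups in 4 of the 5 border genes.

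The border macrophage genes were lower in direction, 5 of 5 with a median difference of -0.14, but varied more among arrays than between groups. Lyve1, a hyaluronan receptor of perivascular and meningeal macrophages and of lymphatic vessels, was at 0.13, 0.10, -0.26 and 0.095 in control 1 to 4 and at -0.31, -0.095, -0.71 and 0.20 in VEGF 1 to 4. Control 3 stood far below its group, VEGF 3 was the lowest of all arrays and VEGF 4 the highest. The difference of Lyve1 was -0.24 with an SE of 0.18 and a 95% interval of -0.64 to 0.15 (limma, adjusted p = 0.64). F13a1, a coagulation factor subunit stored in these macrophages, was at 0.13, 0.11, -0.32 and -0.0060 in control 1 to 4 and -0.35, 0.0060, -0.47 and 0.058 in VEGF 1 to 4, a difference of -0.17 (SE 0.14). Mrc1, the mannose receptor, was lowest in the same arrays, at -0.22 in control 3 and -0.41 in VEGF 3, and differed by -0.067 (SE 0.14). Pf4, the chemokine platelet factor 4, which megakaryocytes make as well, was at -0.091 in control 3 and -0.39 in VEGF 3 and differed by -0.14 (SE 0.11). Cd163, the scavenger receptor for haemoglobin bound to haptoglobin, had a narrower range, -0.059 to 0.074, and differed by -0.015 (SE 0.039).

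Meningeal and endothelial markers shared the low values that 4 of the 5 border genes had in control 3 and VEGF 3. In VEGF 1 they did not, with a border mean of -0.19, a meningeal mean of 0.019 and an endothelial mean of -0.0037. The mean of 10 meningeal fibroblast markers was -0.016, 0.14, -0.26 and 0.00010 in control 1 to 4 and 0.019, 0.17, -0.45 and 0.080 in VEGF 1 to 4. The mean of 10 endothelial markers was also lowest in control 3 (-0.18) and VEGF 3 (-0.25), against 0.019 to 0.094 in the other control and -0.0037 to 0.059 in the other VEGF-labelled arrays. The mean of 9 erythroid markers lay between -0.11 and -0.0017 in control, and was 0.53 in VEGF 1, 0.068 in VEGF 2, 0.19 in VEGF 3 and 0.0042 in VEGF 4, 8 of 9 genes being higher. In Mrc1, Lyve1 and F13a1, VEGF 1 and VEGF 3, the arrays with the most erythroid RNA, were the lowest of the VEGF-labelled group. In Pf4 the lowest were VEGF 3 and VEGF 2, and in Cd163 VEGF 1 and VEGF 2. The border genes had a median of -0.13 once the meningeal mean entered as a covariate, and without control 3 and VEGF 3 it was -0.081, both alternatives added after the data were seen. Without VEGF 3 alone it was -0.030, and with the erythroid mean as a covariate it was 0.0091, so the direction does not hold under that setting. The erythroid mean was higher in all 4 VEGF-labelled arrays than in any control array, so this covariate also takes up part of the group difference. The part that these other cells have in the border genes was not tested further. For Lyz2 the difference was 0.45 with the meningeal mean, 0.47 without control 3 and VEGF 3 and 0.51 with the erythroid mean, and for P2ry12 it was -0.28, -0.23 and -0.35.

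**Figure D4:**
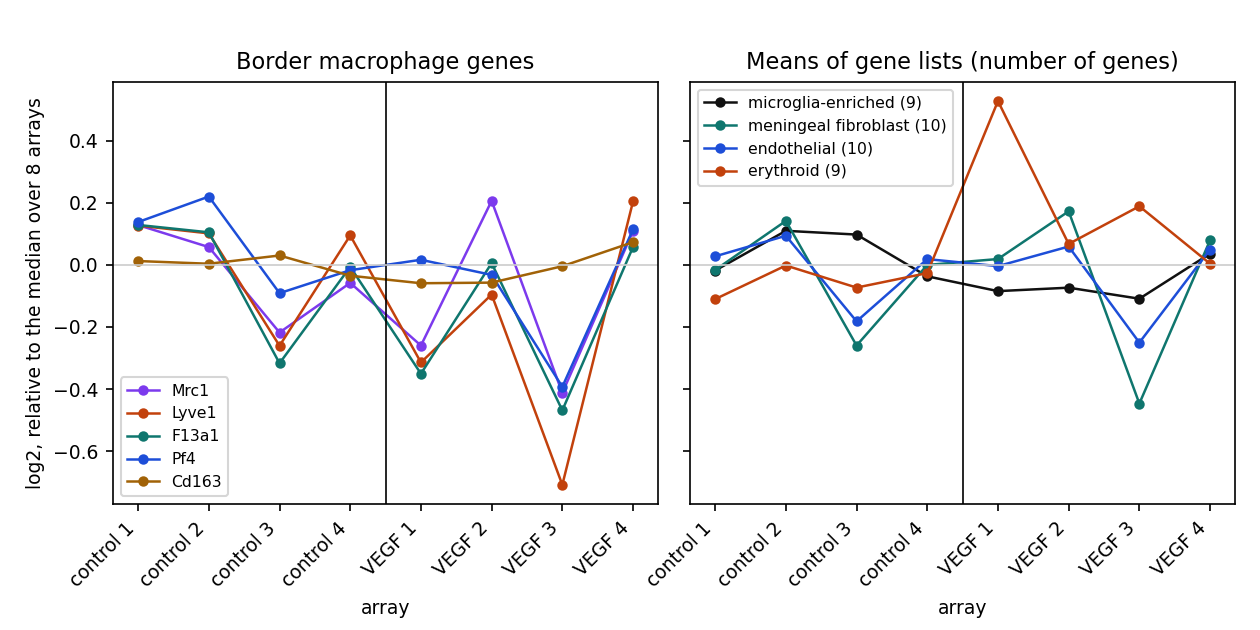
The 5 border macrophage genes (left) and the means of the microglia-enriched genes and of 3 marker lists (right) in each array, as log2 relative to the median over 8 arrays, with lines joining arrays only to guide the eye. Mrc1, Lyve1, F13a1 and Pf4 dip in control 3 and VEGF 3, where the meningeal and endothelial means dip too, and the erythroid mean peaks in VEGF 1 at 0.53.

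Set side by side, Lyz2 lay above control, the microglia-enriched and border genes lay mostly below it, and the shared genes lay mostly above. Over all genes 8628 were higher and 11310 lower. In the further lists described below, 7 microglial genes were higher and 6 lower. There 6 border genes were higher and 5 lower, and 12 shared genes were higher and 7 lower. Of the 9 microglia-enriched genes 6 were lower and 3 higher, with a median of -0.087, and they averaged 0.038 ± 0.076 over the control arrays and -0.057 ± 0.064 over the VEGF-labelled ones (SD over arrays, n = 4 each). These means overlapped between the groups, with control 1 and control 4 at -0.018 and -0.037 and VEGF 4 at 0.037. Of the 17 genes shared by microglia and macrophages, Lyz2 apart, 10 were higher and 7 lower, with a median of 0.057. Their mean was 0.10 in control 2 and 0.11 in VEGF 4, and between -0.12 and 0.0016 in the other 6 arrays. No test of the difference between these classes was made, because they were set with results of these data known. The range of a gene over the 8 arrays had a median of 0.39 in the members against 0.23 over all genes.

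A few arrays often stood at the end of their group. VEGF 4 was the highest VEGF-labelled array in 18 of 32 genes and the highest of all 8 arrays in 11. Control 4 was the lowest control array in 19 of 32 and control 2 the highest in 18. These positions were not counted over all genes, so they cannot be called particular to the members. Without VEGF 4, 7 genes were lower at an unadjusted limma p under 0.05 (Csf1r, P2ry12, P2ry13, Tmem119, Siglech, Laptm5 and Lyve1), or 21.9% against 8.35% of all genes. Then 5 lay wholly below control (Csf1r, P2ry12, P2ry13, Tmem119 and Siglech), or 15.6% against 8.58%, since with 3 arrays in a group more genes do not overlap. The microglia-enriched median was then -0.15. On the higher side 1 gene was at that unadjusted p without control 1, without control 4, without VEGF 3 or without VEGF 4, or 3.12% against 2.40%, 2.92%, 3.51% and 6.10% of all genes. Without control 2 there were 5, or 15.6% against 3.47%. Leaving out VEGF 1 put 3 genes wholly above control, or 9.38% against 4.34%, and leaving out control 2 or VEGF 2 put 2 there, or 6.25% against 3.72% and 3.15%.

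Other myeloid genes, taken from lists of the same field, gave the wider setting. Of 13 further microglial genes 7 were higher and 6 lower, with a median of 0.0056. The one at an unadjusted p under 0.05 was the organic anion transporter Slco2b1, at -0.17 (limma, adjusted p = 0.31). Over all genes 7.84% were lower and 4.62% higher at that unadjusted limma p. Hpgds, a prostaglandin synthase, differed by 0.13, the phagocytic receptor Mertk by 0.092 and the sialic acid-binding Cd33 by -0.087. Growth factors and TGF-beta genes that maintain microglia had 2 of 7 higher and 5 lower. Tgfb2, the TGF-beta ligand that radial glia and meninges also make, was at -0.26, 0.032, -0.045 and -0.27 in control 1 to 4 and 0.25, 0.42, 0.52 and -0.032 in VEGF 1 to 4, a difference of 0.43 with an SE of 0.12 (limma, adjusted p = 0.243). VEGF 4 lay among the control arrays and VEGF 1 to 3 far above them. The Csf1r ligand Csf1 differed by -0.080, the Cx3cr1 ligand Cx3cl1 by -0.20 and Nrros, which presents TGF-beta on microglia, by -0.086.

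Of 9 further myeloid transcription factors 4 were higher and 5 lower. Ikzf1, the lymphoid and myeloid factor Ikaros, lay wholly below control, at 0.27, 0.028, 0.0013 and 0.088 in control 1 to 4 and -0.0013, -0.10, -0.11 and -0.014 in VEGF 1 to 4 (difference -0.15, limma, adjusted p = 0.362). Over all genes 4.71% lay wholly below control. The macrophage factor Maf differed by -0.31, Cebpb by -0.051 and Irf5 by 0.089. Of 19 further genes shared by macrophages 12 were higher and 7 lower, with a median of 0.038. Cybb, the catalytic subunit of the phagocyte NADPH oxidase, was the gene of this list that separated the groups, at -0.013, -0.078, -0.19 and -0.24 in control 1 to 4 and 0.18, 0.21, 0.11 and 0.013 in VEGF 1 to 4. It differed by 0.26 with an SE of 0.061 (limma, adjusted p = 0.243), and its partner subunit Cyba differed by 0.12. Over all genes 2.13% lay wholly above control. The actin bundler Lcp1 and the inhibitory Fc receptor Fcgr2b differed by 0.13 and 0.14.

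The further border macrophage genes went both ways. Of 11 measured 6 were higher and 5 lower, and 2 of them, Ms4a7 and Cd36, lay wholly above control, as did 2.13% of all genes. Ms4a7, a membrane protein of border and monocyte-derived macrophages, was at -0.12, -0.028, -0.12 and -0.10 in control 1 to 4 and 0.16, 0.11, 0.063 and 0.028 in VEGF 1 to 4, a difference of 0.18 with an SE of 0.041 (limma, adjusted p = 0.243). Cd36, a lipid scavenger receptor also found on endothelium, differed by 0.26 with an SE of 0.061 (limma, adjusted p = 0.243), the lectin Clec10a by 0.12 and the endothelin receptor Ednrb by -0.18. Of 16 genes of phagocytic microglia in axon tracts 13 were higher and 3 lower, with a median of 0.046 against -0.010 over all genes. Gpnmb, a glycoprotein of lipid-laden phagocytes, differed by 0.19, the tetraspanin Cd9 by 0.23 and the galectin Lgals1 by 0.16, while the lipase Lpl differed by -0.30. None of these 4 genes passed the adjusted threshold in limma, where their adjusted p lay between 0.331 and 0.381.

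**Figure D5:**
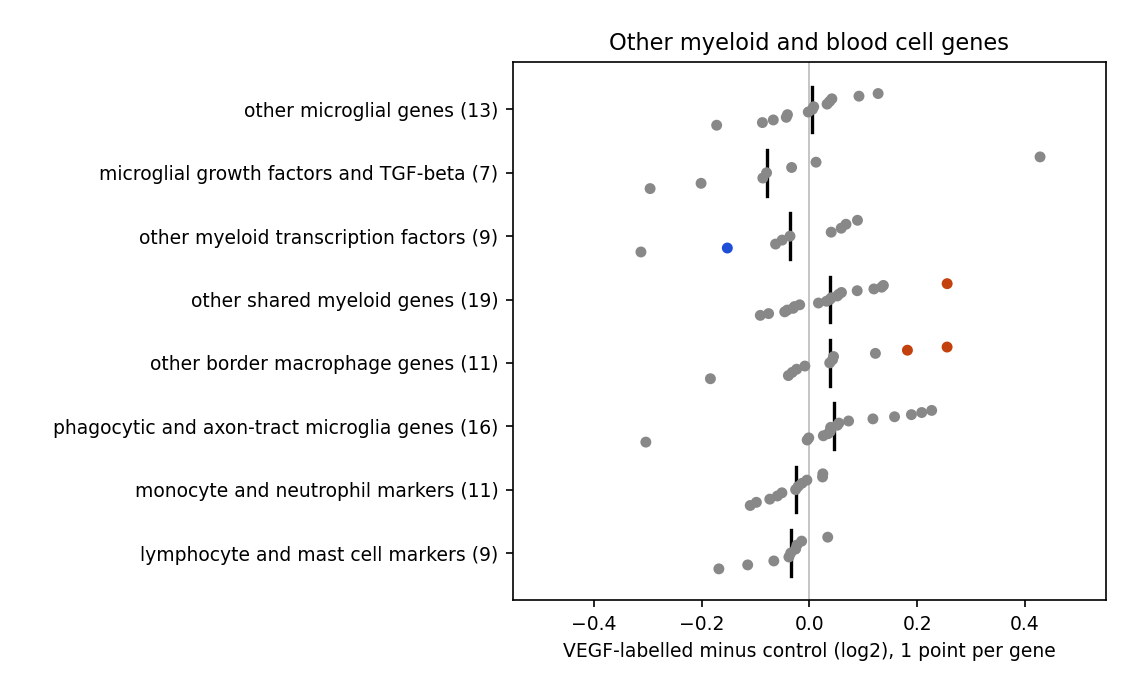
Difference of each gene, VEGF-labelled minus control on the log2 scale, in 8 further lists of myeloid and blood cell genes, with the number of measured genes in brackets and a black bar at the list median. Red points lie wholly above control (among them Cybb, Ms4a7 and Cd36) and blue points wholly below (among them Ikzf1).

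Most markers of circulating leukocytes were lower in direction, as were 11310 of all 19938 genes. Of 11 monocyte and neutrophil markers 9 were lower and 2 higher, with a median of -0.026, and the mean of the list lay between -0.018 and 0.061 in control and between -0.12 and 0.039 in the VEGF-labelled arrays. The granule genes S100a8 and Elane differed by -0.098 and -0.11. Of 9 lymphocyte and mast cell markers 8 were lower and 1 higher, with Cd8a at -0.11 and the mast cell receptor Kit, which other cells share, at -0.17. Choroid plexus markers had 7 of 8 lower, with Folr1 at -0.14 and Aqp1 at -0.17, and cortical markers 5 of 8 lower, with the projection neuron factor Bcl11b at -0.48 and the progenitor factor Pax6 at 0.23. Endothelial genes had 4 of 10 higher, with Cldn5 at -0.24 and Tie1 at -0.11, and meningeal genes 7 of 10 higher, with Col1a1 at 0.15 and Slc6a13 at -0.49. The erythroid gene Alas2 differed by 0.83 and the embryonic globin Hbb-y by 0.44. Centred values do not show whether any of these markers was at background, and the part of these cells in the microglial and macrophage values was not tested.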

How the data were processed

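Total RNA of mouse cortex was labelled from 120 ng per sample, and Affymetrix Expression Console and the build mm8 are named in the submitters' processing notes. The values the authors deposited were taken as log2 from their range, the base being unstated, for 28853 probe sets centred on their medians (within 5e-07 of 0). How background was corrected and probes summarised is not stated in the sources used here. Of the probe sets 21789 had 1 symbol in the platform annotation, 1621 had several and were left out, and 5443 were unnamed. Probe sets of a gene were averaged. 3 further probe sets list Itgam together with another gene.

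Differences (VEGF minus control) were fitted over all 19938 genes with limma 3.58.1 in R 4.3.3, with Benjamini-Hochberg adjustment and a threshold of 0.05. Exact permutation tests were two-sided. Intervals are 95%. The number of arrays limits the precision. The fit was tested on simulated data.

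The members and all lists were chosen with earlier results of these data known, so their p-values describe these arrays and are no independent test. All 32 members and Vegfa were named whatever their values, as were the 4 genes of smallest p of each other myeloid list and the 2 of each other list. Lyz1 was added after values were seen. Alternatives were the replicate number as a block, other array scalings, a robust prior, array weights, the methods' t-test, other treatments of probe sets, sex and erythroid covariates and leaving out each array. Listed genes with no probe set of their own were not used.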

Additional observations from a re-analysis of the deposited data

Results flagged for a closer look

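In each group of 4 arrays the gap between the highest or lowest array and its nearest neighbour was divided by the range of all 4, for 176 groups of values of named genes and list means. The gap passed Dixon's 95% critical value in 5 of them, or 2.84%, fewer than the about 1 in 20 that chance alone gives. Tmem119 was at 0.17 in VEGF 4, against -0.099 to -0.054 in the other VEGF-labelled arrays. Lyve1 was at -0.26 in control 3, against 0.095 to 0.13 in the other control arrays, and the endothelial receptor gene Tie1 was at -0.22 in the same array, against 0.060 to 0.11. Lcp1 was at 0.27 in VEGF 2, against -0.013 to 0.013. The mean of the growth factor and TGF-beta genes was -0.11 in VEGF 3, against -0.012 to 0.0088.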

How the results depend on the processing

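No member passed the adjusted threshold in any of the 21 alternatives, and the lowest adjusted p was that of Lyz2 without VEGF 4 (0.084), a setting in which 10 other genes passed. Lyz2 kept its direction in all 21, from 0.41 to 0.53 (adjusted p 0.084 to 0.616), as did P2ry12, from -0.35 to -0.19 (0.145 to 0.628), and Siglech, from -0.21 to -0.15 (0.127 to 0.616). Their groups do not overlap, so leaving out or weighting arrays could not turn these directions. The replicate block, robust prior, methods' t-test and probe set treatments leave each difference of a member unchanged. The kept direction therefore mostly restates the lack of overlap. Vegfa lay between 0.027 and 0.078 with an array left out.

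The count of members higher at an unadjusted p under 0.05 was 7 with array weights (21.9% against 4.85% of all genes), 1 with the methods' t-test (3.12% against 3.31%), 1 leaving out control 3 and VEGF 3 (3.12% against 4.04%) and 6 leaving out control 2 and VEGF 2 (18.8% against 3.61%), and lay between 1 and 5 with 1 array left out. The lower count was 1 leaving out control 2 and VEGF 2 (3.12% against 6.59%), and 2 to 7 with 1 array left out. The count wholly above control was 2 leaving out control 3 and VEGF 3 (6.25% against 6.26%), 4 leaving out control 2 and VEGF 2 (12.5% against 7.15%), and 1 to 3 with 1 array left out, and the count wholly below was 2 to 5. The microglia-enriched median was -0.028 with array weights, and -0.15 to -0.061 with 1 array left out, the border median -0.20 to -0.030 and the shared median 0.028 to 0.076. Both settings that leave out 2 arrays were added after the data were seen, and the cause of these changes was not tested.

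Small differences changed sign. Irf8 was 0.00060 with centred arrays, 0.0072 with quantile normalization, 0.011 with the sex covariate and 0.023 leaving out control 2 and VEGF 2, where Cd14 was 0.055 and Cd163 0.00070. Sall1 was -0.0012 with quantile normalization and -0.022 with the sex covariate. With array weights Laptm5 was 0.017, Cd14 0.038 and Cd163 0.018. With the erythroid covariate, which takes up part of the group difference, Spi1 was 0.084, Csf1r 0.015, Laptm5 0.00050, Ly86 0.024, Mrc1 0.13, F13a1 0.0091 and Cd163 0.027. With 1 array left out Spi1 lay between -0.11 and 0.0075, Irf8 between -0.024 and 0.025, Sall1 between -0.059 and 0.081, Fcrls between -0.023 and 0.18, Tyrobp between -0.0020 and 0.13, Cd14 between -0.082 and 0.033, Mrc1 between -0.17 and 0.041 and Cd163 between -0.043 and 0.0010.

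Replicate numbers gave correlations of 0.050, -0.13, 0.45 and 0.30 between same-numbered arrays, of which pairs 3 and 4 alone matched their own number best. These values do not settle whether the numbers pair the samples. The main fit used no pairing because the series text names an unpaired t-test. With the replicate block every difference is the same and Lyz2 has an adjusted p of 0.159. At an unadjusted limma p under 0.05 P2ry13 is then no longer called lower, and Lyve1 and Ly86 are. That makes 4 of 32 lower, or 12.5% against 7.90% of all genes, and 3 higher, or 9.38% against 5.39%. In both directions together 2649 genes are at that p, against 2484 without the block. A filter on low values and a trended prior were not run, because centred values hold no level, and signal over background is unknown.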
